A study of Arabidopsis thaliana with 6 samples.

Results

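Ferritin is the protein shell in which plastids store iron, and POPEYE (PYE) is a transcription factor of the iron deficiency response. The genes examined here are the ferritin genes FER1 (AT5G01600), FER3 (AT3G56090) and FER4 (AT2G40300) together with PYE (AT3G47640). They were chosen by name, with earlier results of these arrays known, and 3 of the 4 had a probe set that could be named among the 22746 tested; the platform annotation named 13286 genes in all. FER1 and FER4 were named through the probe set and locus pairs of the study's list of changed genes, a list drawn up on the same arrays, and PYE through the platform annotation. FER3 was not analysed here. The levels of the ferritin genes and PYE are therefore described with their spread and given no test.

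Plants need iron for photosynthesis and respiration, yet free iron also drives the formation of reactive oxygen, so its uptake and storage are closely balanced. Leaf ferritins are plastid proteins encoded by nuclear genes, and their transcripts accumulate when iron is in excess and decline when it is scarce. In Arabidopsis, PYE and its partner ILR3 are known to repress ferritin genes under iron deficiency. FER1 has also been placed under the circadian clock, through TIME FOR COFFEE (TIC), and under the phosphate starvation factors PHR1 and PHL1.

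The 6 ATH1 arrays held 3 samples of wild type Ws and 3 labelled bzip63-2, a T-DNA insertion line (H3-2) of the transcription factor gene bZIP63. Each sample was a pool of the 4 youngest leaves from 5 plants, which were grown for 25 days after germination at 22 °C with 10 h of light and 14 h of darkness and collected as the night ended. The methods of the study add the shoot apical meristem to these leaves. The mutant group stands for 1 insertion allele, all plants were otherwise untreated, and the pools were labelled as biological replicates. The bZIP63 probe set (AT5G28770) gave log2 values of 5.32, 5.51 and 5.91 in Ws and 8.65, 8.55 and 8.78 in the arrays with the bzip63-2 label. The insertion line thus had the higher signal for its own gene, so every direction below rests on the labels.

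Values are the authors' RMA values on the log2 scale, 1 per probe set and array. All arrays shared a lowest value of 2.469, called the floor here, and a probe set within 0.05 of it is described as being at the floor. On a single array, 39.4% to 42.2% of the probe sets lay there. Correlations between arrays ranged from 0.9926 to 0.9943 within Ws, from 0.9954 to 0.9961 within the arrays with the bzip63-2 label and from 0.9896 to 0.993 between genotypes. The Ws arrays were the less alike, and their lowest correlation lay below the highest between genotypes. Of the markers fixed for the tissue, few could be named: RCA, the rubisco activase gene of mesophyll, had log2 values between 11.5 and 11.8, the meristem gene CLV3 and the root hair gene EXPA7 were at the floor on all arrays, and the senescence gene SAG29 lay between 2.48 and 2.95. The number of arrays limits the precision.

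FER1, a leaf ferritin gene that responds strongly to iron excess, was higher in the arrays with the bzip63-2 label than in Ws. Its log2 values were 4.649, 5.071 and 5.179 in Ws replicates 1, 2 and 3. In the arrays with the bzip63-2 label they were 5.689, 5.495 and 5.307. Each of these 3 values lay above all Ws values, but the smallest step between the genotypes was 0.13, whereas the Ws values alone spanned 0.53. The means were 4.97 ± 0.28 (SD, n = 3 arrays) for Ws against 5.50 ± 0.19 (SD, n = 3) in the arrays with the bzip63-2 label, which is a log2 difference of 0.53 (standard error 0.19), or 1.44-fold.

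FER4, whose product is found in plastids and also in mitochondria, was higher by a similar amount with far less spread. Its log2 values were 4.768, 4.617 and 4.693 in Ws and 5.08, 5.159 and 5.257 in the arrays with the bzip63-2 label. The genotypes did not overlap, and the step of 0.31 between them was wider than the range inside either genotype, 0.15 in Ws and 0.18 in the arrays with the bzip63-2 label. The means were 4.69 ± 0.08 (SD, n = 3 arrays) and 5.17 ± 0.09 (SD, n = 3), a log2 difference of 0.47 (standard error 0.06), or 1.39-fold. In pooled leaves, a higher value in every cell and a larger share of cells that express the gene cannot be told apart.

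Both ferritin probe sets were thus among those whose arrays did not overlap and were higher in the arrays with the bzip63-2 label, a group that held 6.81% of the 22746 probe sets tested and 14.9% of the 8242 with a mean above 3. The group whose arrays did not overlap and were lower held 3.23% of the 22746. The higher share depended on the scaling, at 12.9% with quantile normalization repeated and 3.64% with each array centred on the median of its brighter probe sets, those with a mean above 3. Since the study listed FER1 and FER4 as changed on these arrays, nothing is read from that count. Both lay well clear of the floor, by at least 2.18 for FER1 and 2.15 for FER4 on the log2 scale.

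The PYE probe set gave no signal to compare. Its log2 values were 2.48, 2.478 and 2.478 in Ws and 2.483, 2.473 and 2.478 in the arrays with the bzip63-2 label. All 6 values lay at the floor, at most 0.014 above the lowest value of the arrays, and 32.5% of all probe sets were at the floor on every array in the same way. No fold is given for PYE, and a difference between the genotypes was not detectable with this probe set. The repressor that pairs with ILR3 at ferritin genes was therefore not measured, whereas ILR3 itself was.

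**Figure D1:**
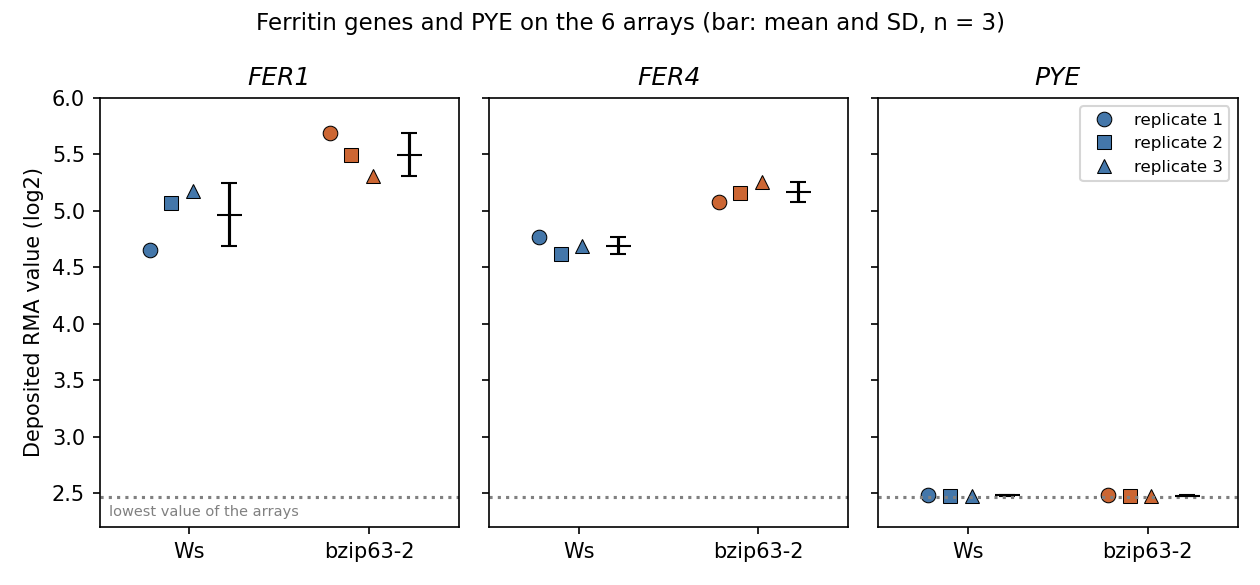
Deposited log2 RMA values (vertical axis) of FER1, FER4 and PYE in the 3 Ws arrays (blue) and the 3 arrays labelled bzip63-2 (orange). Marker shapes give the replicate, black bars the mean and SD (n = 3), and the dotted line the floor at 2.469. FER4 shows 2 tight groups, FER1 2 wide groups separated by 0.13, and PYE lies on the floor in all arrays.

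Inside a genotype, the order of the arrays was not the same for FER1 and FER4. Ws replicate 1 was the lowest of the Ws arrays for FER1, 0.32 below the Ws mean on the log2 scale, and the highest of them for FER4, 0.08 above it. In the arrays with the bzip63-2 label the order was turned as well. Replicate 1 was the highest of the 3 for FER1 and the lowest for FER4, and replicate 3 was the lowest for FER1 and the highest for FER4. The order of the arrays thus differed between FER1 and FER4, although their genotype means differed by about the same amount. The SD of FER4, 0.08 in Ws and 0.09 in the arrays with the bzip63-2 label, was small. It lay below the median SD inside the genotypes of probe sets with a mean above 3, which was 0.11. With so little spread over 3 arrays, nothing more is read from the order of FER4. Without Ws replicate 1, the log2 difference of FER1 was 0.37, the lowest over the 6 arrays left out in turn, and without Ws replicate 3 it was 0.64, the highest. For FER4 the same range was 0.43 to 0.52.

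The RNA quality controls of the arrays overlapped between the genotypes. The log2 difference between the 3′ and 5′ probe sets of the GAPDH control was 0.40 to 0.46 in Ws and 0.23 to 0.55 in the arrays with the bzip63-2 label. For the actin control it was 2.07 to 2.44 and 2.04 to 2.37, and for the ubiquitin control 0.36 to 0.67 and 0.38 to 0.50. Ws replicate 1, the lowest array for FER1, had the highest of these actin values, 2.44. Another array had the highest value for GAPDH and for ubiquitin. Any part of RNA quality in the FER1 value was not tested.

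The profiles of the ferritin genes were also set against those of other genes. After each profile was centred on its own mean, the root mean square difference over the 6 arrays, in log2 units, served as the measure of likeness, so a small value means a close profile. FER1 and FER4 stood 0.26 apart. Of 8241 other probe sets with a mean above 3, 914 were closer to FER1 than FER4 was, and 4508 were closer to FER4 than FER1 was. This measure counts the spread inside the genotypes as well as the step between them, and FER1 had a wide spread. It cannot tell such spread from an unlike step, so nothing is read from these ranks.

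Nearest profiles were sought among 4208 probe sets with a mean above 3 of genes named by the platform annotation. The 5 nearest to FER1 were AT4G30650 (0.11), scpl35 (0.12), AT1G52000 (0.12), AT2G31810 (0.13) and AT5G04790 (0.13). All 5 had their lowest Ws value in replicate 1, as FER1 did, and log2 differences between 0.35 and 0.62. The 5 nearest to FER4 were AT2G47710 (0.05), AT3G17770 (0.06), TRM20 (0.06), AT5G59950 (0.06) and AT3G19100 (0.07), with log2 differences between 0.41 and 0.51. In both groups of 5, the likeness in array order and log2 difference follows from choosing the nearest profiles, so nothing is read from it. No gene stood in both groups of 5, and scpl35, AT2G31810, TRM20 and AT3G19100 are also on the study's list of changed genes. The search left out probe sets at the floor, where PYE itself lay. The nearest to PYE among those searched were AT3G43590, AT3G17120, AT1G76140, AT2G04540 and AT1G67620. They were near flat on all 6 arrays, as PYE was, so that likeness carries no pattern.

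The study's list of changed genes named a probe set for 4 further genes of iron handling, on 3 probe sets, and all 3 were higher in the arrays with the bzip63-2 label. They were chosen by the study on these arrays, so they are described without a test and their shared direction is not independent of that choice. The ferric reductases FRO6 and FRO7, of which FRO7 serves the chloroplast, share 1 probe set, and their signals cannot be told apart. Its log2 values were 6.189, 6.377 and 6.614 in Ws and 6.848, 6.789 and 7.108 in the arrays with the bzip63-2 label. The genotypes did not overlap on it, and the log2 difference was 0.52 (standard error 0.15).

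SUFB and NFU3 belong to the plastid machinery that builds iron-sulfur clusters, SUFB as part of the scaffold and NFU3 as a carrier that hands clusters on. SUFB gave log2 values of 5.043, 5.016 and 5.218 in Ws and 5.67, 5.544 and 5.574 in the arrays with the bzip63-2 label, a log2 difference of 0.50 (standard error 0.07). NFU3 gave 5.64, 5.744 and 5.754 in Ws and 6.086, 5.965 and 6.229 in the arrays with the bzip63-2 label, a log2 difference of 0.38 (standard error 0.08). Neither overlapped between the genotypes. By the same profile measure, FER4 stood 0.11 from NFU3 and 0.11 from SUFB, and FER1 stood 0.22 and 0.16 from them. The FRO6/FRO7 probe set stood 0.16 from FER4 and 0.21 from FER1. The 5 platform-named profiles nearest to FER4 were closer, at 0.05 to 0.07. All of these iron genes were chosen by the study on these arrays and differ in the same direction, so nothing is read from the distances between them.

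**Figure D2:**
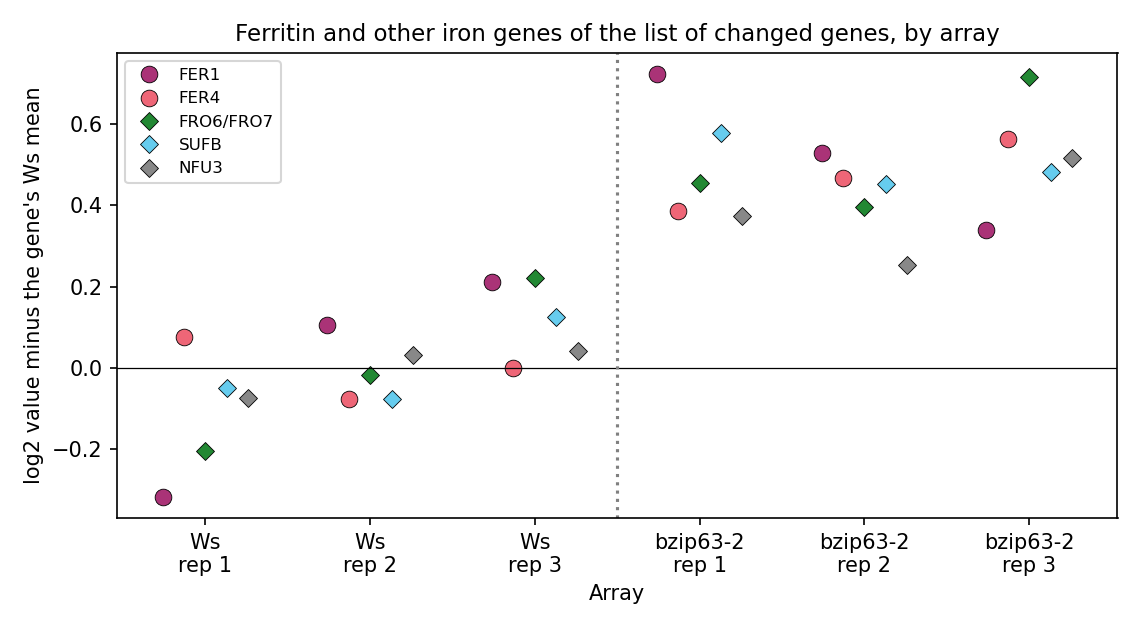
Log2 value minus the gene's own Ws mean (vertical axis) in each of the 6 arrays (horizontal axis) for FER1 and FER4 (circles) and for FRO6/FRO7, SUFB and NFU3 (diamonds). All 5 probe sets lie higher in the arrays with the bzip63-2 label, and FER1 and FER4 take opposite extremes in replicates 1 and 3 of that group.

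Genes of iron handling could also be named without the list of changed genes. Of 83 genes listed by role, 16 had a probe set named by the platform annotation, and 15 remained once PYE was left out. None of the 15 is on the study's list of changed genes, so the choice itself sets them apart from the genes above, and nothing is read from that contrast. None of these 15 passed an adjusted p under 0.05 from limma with Benjamini-Hochberg adjustment over all 22746 probe sets, and 0% of all probe sets did. At an unadjusted p under 0.05, 2 of the 15 were higher and 0 lower, against 4.33% and 2.04% of all probe sets, or 6.37% in either direction. Of all probe sets past this unadjusted threshold, 67.9% were higher as deposited, but 54.6% with quantile normalization repeated and 26.1% with each array centred on the median of its brighter probe sets. The arrays did not overlap for 4 of the 15 that were higher and 1 that was lower, against 6.81% and 3.23% of all. With quantile normalization repeated these counts were again 4 and 1 of the 15, though not for the same genes. Of all probe sets, 2927 were then higher and 1459 lower without overlap, against 1549 and 734 as deposited. BTSL1 and MIT2, both at the floor, entered the higher 4 with log2 differences of only 0.001 and 0.006. With centring on the brighter probe sets the balance turned, to 2 higher and 6 lower of the 15, beside 828 higher and 11028 lower of all probe sets. That centring also shifts values at the floor. The median log2 difference of the 11 genes above the floor on some array was 0.03, and that of all such probe sets was 0.005. With so few named genes these shares describe the 15 alone.

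Among the partners and activators of PYE, ILR3 did not differ beyond its spread. Its log2 values were 5.419, 5.477 and 5.459 in Ws and 5.376, 5.33 and 5.521 in the arrays with the bzip63-2 label, with a log2 difference of -0.04 (standard error 0.06, adjusted p = 0.82 from limma). The bHLH factors that act upstream of PYE and pair with ILR3 were measured by 4 probe sets. bHLH104 gave log2 values of 3.701, 4.197 and 4.073 in Ws and 4.314, 4.361 and 4.22 in the arrays with the bzip63-2 label. The step between the genotypes was only 0.02, and the log2 difference of 0.31 (standard error 0.15) did not pass (adjusted p = 0.74 from limma). Like FER1, bHLH104 had its lowest value in Ws replicate 1, which was not particular to it. ILR3, bHLH34, URI, MIT1, FRO6/FRO7 and NFU3 also had their lowest Ws value there, whereas FER4, SUFB, bHLH115, NFS2, ISU1 and TIC did not.

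bHLH34 stood close to the floor, at 2.587, 2.726 and 2.774 in Ws and 2.822, 2.926 and 2.974 in the arrays with the bzip63-2 label, with a log2 difference of 0.21 (standard error 0.07, adjusted p = 0.70 from limma). bHLH115 had a log2 difference of -0.002 (standard error 0.06), with overlapping arrays. URI, the bHLH121 factor, had one of 0.03 (standard error 0.17), and its sign turned under both other scalings of the arrays. bHLH101, a factor of the deficiency response, was at the floor. None of these genes passed the adjusted threshold, and a p above it does not show that their levels were alike.

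The ubiquitin ligase gene BTSL1, F6'H1 (AT3G13610) of coumarin synthesis, which roots use in iron uptake, and MIT2, a mitochondrial iron importer gene, were at the floor on all arrays. BTSL2 and the peptide gene IMA1, which signals iron deficiency, rose above it by no more than 0.14 and 0.05 on the log2 scale. MIT1, the other mitochondrial importer gene, had log2 values of 3.178, 3.62 and 3.53 in Ws and 3.726, 3.58 and 3.802 in the arrays with the bzip63-2 label. They overlapped, and the log2 difference was 0.26 (standard error 0.14, adjusted p = 0.74 from limma).

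Iron-sulfur cluster genes were also named by the platform annotation, and neither of those described here is on the list of changed genes. NFS2, the plastid cysteine desulfurase that supplies sulfur to the same machinery, had log2 values of 3.815, 3.632 and 3.629 in Ws and 3.591, 3.61 and 3.603 in the arrays with the bzip63-2 label. Its log2 difference was -0.09 (standard error 0.06, adjusted p = 0.74 from limma), with a step of 0.02 between the groups (lower in the arrays with the bzip63-2 label). ISU1, the scaffold of the mitochondrial pathway, had log2 values of 5.09, 5.057 and 5.155 in Ws and 5.197, 5.273 and 5.26 in the arrays with the bzip63-2 label. Its arrays did not overlap, but the log2 difference of 0.14 (standard error 0.04) did not pass (adjusted p = 0.55 from limma).

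TIC, the clock gene tied to FER1 in Arabidopsis, had log2 values of 3.902, 3.736 and 3.936 in Ws and 3.937, 4.013 and 3.988 in the arrays with the bzip63-2 label. The lowest of the latter lay 0.001 above the highest Ws value, and the log2 difference of 0.12 (standard error 0.06) did not pass (adjusted p = 0.74 from limma). PHR1 and PHL1 were not analysed here. In a fit restricted to the 8242 probe sets with a mean above 3, 0.692% of the probe sets and 0 of the 8 listed genes that it held passed the adjusted threshold, and the lowest adjusted p among them was 0.31 from limma, for bHLH104.

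**Figure D3:**
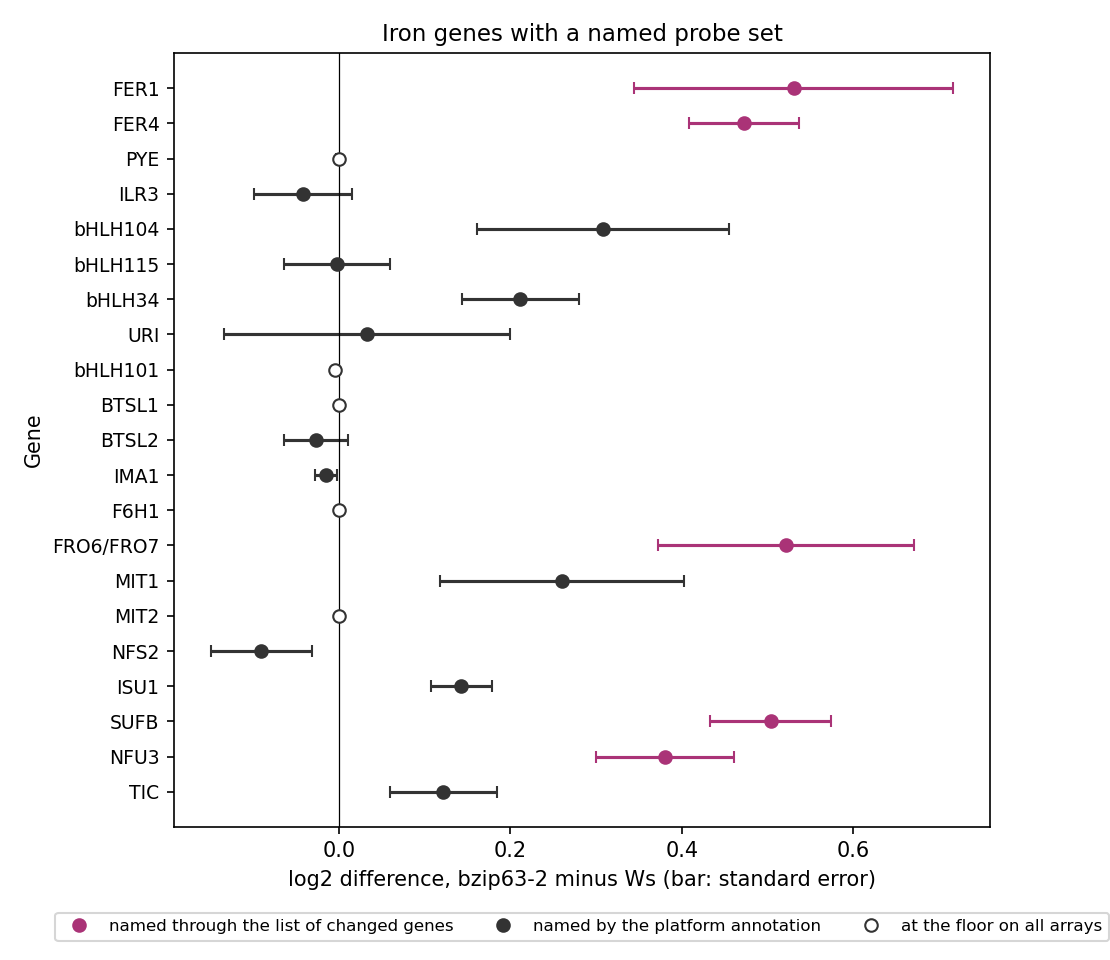
Log2 difference, bzip63-2 minus Ws (horizontal axis, bars give the standard error from limma), of the iron genes with a named probe set (vertical axis, ordered by role). Genes named through the study's list of changed genes (purple) lie between 0.38 and 0.53, genes named by the platform annotation (black) between -0.09 and 0.31, and open circles mark genes at the floor on all arrays.

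The ferritin differences were of similar size under other scalings of the arrays. FER1 and FER4 were listed by the study as changed on these same arrays. Centring also shifts the log2 difference of every probe set by the same amount, so this likeness is no separate support. With quantile normalization repeated, the log2 difference was 0.49 for FER1 and 0.43 for FER4, and with each array centred on the median of its brighter probe sets it was 0.48 and 0.42. The genotypes did not overlap for either gene under these scalings, with steps of 0.10 for FER1 and 0.25 for FER4 in both. FRO6/FRO7, SUFB and NFU3 did not overlap either. Among genes not on the study's list of changed genes, bHLH104 and TIC overlapped between the genotypes under both other scalings, and bHLH34 and ISU1 did not. The choice itself sets them apart from the listed genes, so nothing is read from that comparison. NFS2 stayed lower without overlap under both. With quantile normalization repeated, BTSL1 and MIT2 no longer overlapped and were higher, by 0.001 and 0.006 at the floor. With centring on the brighter probe sets, bHLH101, BTSL1, IMA1, F6'H1 and MIT2, all at or near the floor, no longer overlapped and were lower, with log2 differences between -0.068 and -0.053.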

How the data were processed

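RNA of 6 samples was hybridised to Affymetrix ATH1 arrays. The authors applied RMA in Expression Console and deposited the resulting log2 values, with versions not given in the sources used here. A linear model (limma 3.58.1, R 4.3.3, standard eBayes prior) compared the genotypes over 22746 probe sets, without 64 control probe sets, and p-values were Benjamini-Hochberg adjusted. The fit was tested on simulated data. Platform annotation, matched to RefSeq genes by gene identifier, gave 13513 probe sets 1 gene and 503 several. The brightest probe set stood for a gene. Genes were named by rule: the ferritin genes and PYE, the iron list, bZIP63 and the 5 nearest profiles of each gene. Those profiles were sought among probe sets with a mean above 3. The genes and lists were chosen with earlier results of these arrays known. Other settings of the threshold, the filter on dim probe sets, the prior, array weights and scaling were tried, as were a block for the replicate number and fits without each array. Fold changes and p-values of the study's list were not used. No sequences are printed.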

Additional observations from a re-analysis of the deposited data

How the results depend on the processing

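With limma on all probe sets, 0 were higher and 0 were lower at an adjusted p under 0.05, against 984 and 465 at an unadjusted p under 0.05. Adjusted counts were 28 higher and 29 lower with means of 3 or less left out, and 60 and 48 with means of 4 or less left out. They were 13 and 15 with probe sets under the median brightness left out. With each array centred on the median of its brighter probe sets they were 16 and 32. The filtered fits hold fewer probe sets, whereas the centred fit keeps all 22746. The degrees of freedom of the eBayes prior were 0.423 in the main fit and 3.05 with means of 3 or less left out. The cause of the differing counts was not tested. Fits without one array called 0 to 9 as higher and 0 to 25 as lower, the most without Ws replicate 3. The share of unadjusted calls that were higher was 67.9% as deposited, 54.6% with quantile normalization repeated and 26.1% with each array centred on the median of its brighter probe sets. Of the 15 iron genes, 2 were higher at an unadjusted p under 0.05. With each array centred on the median of its brighter probe sets, 2 were higher and 1 lower at that threshold. At an adjusted p under 0.05, 0 were called in any other setting, each array left out included (0 to 0). The fits without means of 3 or less, without means of 4 or less and without the dimmer probe sets held only 8, 5 and 9 of the 15. The log2 difference ranged from 0.372 to 0.637 for FER1, from 0.4268 to 0.5153 for FER4 and from -0.0032 to 0.0018 for PYE with each array left out. For PYE it was 0.0038 with quantile normalization repeated and -0.0533 with each array centred on the median of its brighter probe sets, which shifts values at the floor. With the replicate number as a block, the log2 differences, 0.5307 for FER1 and 0.4727 for FER4, cannot change in this balanced design, the standard errors were 0.244 and 0.0732 against 0.186 and 0.0639 without it, and 0 probe sets were called; deviations of same-numbered arrays correlated at -0.0371, 0.0193 and 0.0485 over probe sets with a mean above 3, so the numbers were not taken as pairs. No gene had a second named probe set to set against the first among FER1, FER4 and PYE.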
